A study of Mus musculus with 9 samples.

Results

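The genes examined were 34 genes of the unfolded protein response and of the amino acid stress response, a set of known targets and transducers chosen by symbol and found among the 55704 rows of an expression table of mouse neural stem cells (NSCs). Each symbol was matched to 1 Ensembl identifier above 0, and all 34 genes passed the filter on low values. They comprised 14 chaperones and folding enzymes of the endoplasmic reticulum (ER), 4 genes of ER-associated degradation, 4 genes for the stress sensors and Xbp1, 6 factors of the integrated stress response, and 6 enzymes of amino acid and one-carbon synthesis.

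The unfolded protein response adjusts the folding capacity of the ER to its load. Its sensors are IRE1 (gene Ern1), which splices the mRNA of Xbp1, PERK (gene Eif2ak3), which phosphorylates eIF2alpha, and ATF6, and their targets include chaperones such as BiP (gene Hspa5) and the degradation machinery. Phosphorylation of eIF2alpha by PERK, or by GCN2 when amino acids are scarce, lowers general translation but raises that of the transcription factor ATF4, whose targets include asparagine synthetase, the enzymes of serine synthesis, Trib3 and Chac1, and this branch is known as the integrated stress response. Dividing neural progenitors are known to draw on serine and folate metabolism for nucleotide synthesis.

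RNA was sequenced from NSCs of the adult subventricular zone in 9 libraries, 3 in each of 3 groups: bFGF/EGF-treated NSCs collected at day 0, bFGF/BMP4-treated NSCs at day 6 and BMP4-treated NSCs at day 6. In all groups the cells came from wild-type C57BL/6 mice of 8 to 9 weeks, with 2 female and 2 male mice for an isolation, had been passaged at least 3 times, had been left to adhere for 16 to 18 h and received each factor at 20 ng/mL. bFGF with BMP4 is a culture model of NSC quiescence. The control was collected at day 0, so treatment and time in culture cannot be told apart in either comparison with bFGF/EGF-treated NSCs. bFGF/BMP4 and BMP4 were separate treatments, so a rise or fall from bFGF/BMP4 to BMP4 names a comparison and not a course in time. The series calls the 3 libraries of a group biological replicates without saying whether they came from separate isolations, so the p-values measure the spread between these libraries, which may be partly technical.

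Levels are FPKM, the fragments of a gene scaled by its length and by library size, and the libraries held 15892854 to 17419822 fragments on genes. The summed FPKM of 8 NSC markers was 1681 to 1784 in bFGF/EGF-treated, 665 to 769 in bFGF/BMP4-treated and 1417 to 1883 in BMP4-treated NSCs, and that of 8 astrocyte markers was 225 to 310, 1063 to 1119 and 4158 to 4998. A few genes carried these sums. With BMP4, Gfap made up 2566 of the mean astrocyte sum of 4541 and Vim reached 892. Nes fell from a mean of 151 at day 0 to 15.8 with BMP4. Of the 8 NSC markers, 2 rose and 4 fell with bFGF/BMP4 against day 0. With BMP4, 3 rose and 2 fell against day 0, and 5 rose and none fell against bFGF/BMP4. Of the astrocyte markers, 7 of 8 rose and Aldh1l1 fell in both comparisons with day 0 (means of 135, 24.2 and 58.1). Summed oligodendrocyte lineage markers were 1138 to 1638, 1162 to 1505 and 256 to 420, mostly Olig1 (means of 1352, 1254 and 275), with Sox10 at 0 in every day 6 library. Of the 7 tested against day 0, 1 rose and 3 fell with bFGF/BMP4, and 1 rose and 4 fell with BMP4. Their highest log2 changes were 3.55 and 5.48. Summed neuron and neuroblast markers were 76.1 to 92.1, 47.6 to 53.3 and 142 to 213, with Tubb3 at a mean of 145 with BMP4. Of the 6 tested against day 0, none rose and 2 fell with bFGF/BMP4, and 2 rose and 2 fell with BMP4. The lowest log2 changes were -4.10 and -3.15. Sums over 8 microglia and 8 vascular markers stayed at or below 1.75 and 1.79 in every library, with Itgam, C1qa and Cldn5 at 0 in every library. Summed ependymal markers were 8.75 to 13.3 at day 0, 11.2 to 12.2 with bFGF/BMP4 and 59.4 to 71.8 with BMP4. Of the 5 tested against day 0, 1 rose and 2 fell with bFGF/BMP4, and 5 rose with BMP4. Mitochondrial genes held 1.56% to 2.46% of fragments at day 0 and 3.07% to 3.73% in the day 6 libraries. The part of these differences in the results was not tested. In bulk RNA, fewer cells of a type and less RNA per cell cannot be told apart.

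Promoter sequence is shown first because these motifs are what the pathways are known for. RefSeq promoters of build GRCm38.p6, from 250 bases before to 50 bases after the annotated start, were matched for 31 of the 34 genes, with Manf, Hyou1 and Atf6 unmatched. The promoter of Hspa5, the reference target of the unfolded protein response, and that of Asns, the reference target of ATF4, are given whole, on the strand of the gene, with the matched motif letters in capitals.
Hspa5 (chr2:34771840-34772139, + strand): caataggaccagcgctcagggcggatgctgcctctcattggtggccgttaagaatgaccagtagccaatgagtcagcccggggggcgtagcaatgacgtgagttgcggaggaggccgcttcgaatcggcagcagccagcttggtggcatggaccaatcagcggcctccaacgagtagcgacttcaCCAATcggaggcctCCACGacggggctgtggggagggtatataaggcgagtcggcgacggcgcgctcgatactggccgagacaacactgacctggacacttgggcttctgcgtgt
Asns (chr6:7693160-7693459, - strand): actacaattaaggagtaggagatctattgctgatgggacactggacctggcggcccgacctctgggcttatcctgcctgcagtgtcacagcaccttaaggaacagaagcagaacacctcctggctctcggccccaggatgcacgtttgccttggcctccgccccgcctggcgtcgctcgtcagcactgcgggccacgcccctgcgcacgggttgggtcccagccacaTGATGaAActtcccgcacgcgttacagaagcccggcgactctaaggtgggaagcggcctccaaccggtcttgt

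The ER stress response element (ERSE), taken here as CCAAT, any 9 bases and CCACG on either strand, was found for 8 of the 31 genes (25.8%) against 37 of all 27025 genes with a promoter in the table (0.137%). The 8 genes were Hspa5, Hsp90b1 with 2 matches, Calr, Canx, Pdia6, Dnajc3, Creld2 and Syvn1. The matches are aligned below in the direction of the motif, with its fixed letters in capitals. Those letters are alike in all matches because the search required them, and only the other bases could differ.
Hspa5 (chr2:34772020-34772048, + strand): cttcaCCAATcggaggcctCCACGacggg
Hsp90b1 match 1 (chr10:86705633-86705661, - strand): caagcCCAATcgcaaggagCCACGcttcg
Hsp90b1 match 2 (chr10:86705528-86705556, + strand): actcaCCAATcgtgcctcaCCACGcactc
Calr (chr8:84847070-84847098, + strand): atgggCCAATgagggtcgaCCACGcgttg
Canx (chr11:50325795-50325823, - strand): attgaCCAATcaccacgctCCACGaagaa
Pdia6 (chr12:17266486-17266514, + strand): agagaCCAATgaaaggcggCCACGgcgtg
Dnajc3 (chr14:118937822-118937850, + strand): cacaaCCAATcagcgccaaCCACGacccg
Creld2 (chr15:88819515-88819543, - strand): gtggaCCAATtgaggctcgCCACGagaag
Syvn1 (chr19:6046527-6046555, + strand): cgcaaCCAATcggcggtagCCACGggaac

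The C/EBP-ATF element, TGATGNAA on either strand, was found for 5 of the 31 genes (16.1%), against 1219 of all 27025 (4.51%), and it overlapped no ERSE match. The matches are printed below in the same way, and their fixed letters are again alike by the search. Asns, Trib3 and Chac1 fell in both comparisons with day 0 and Atf3 was called in opposite directions. The UPRE, TGACGTGG, was found for 193 genes (0.714%) and for none of the 31 genes. These matches are descriptions of letters in a window and not of factor binding.
Asns (chr6:7693214-7693243, - strand): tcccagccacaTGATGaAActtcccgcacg
Trib3 (chr2:152344028-152344057, + strand): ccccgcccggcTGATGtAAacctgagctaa
Chac1 (chr2:119351038-119351067, - strand): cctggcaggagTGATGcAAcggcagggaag
Atf3 (chr1:191183425-191183454, + strand): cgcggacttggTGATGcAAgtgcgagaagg
Herpud1 (chr8:94386306-94386335, - strand): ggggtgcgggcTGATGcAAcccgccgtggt

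**Figure D1:**
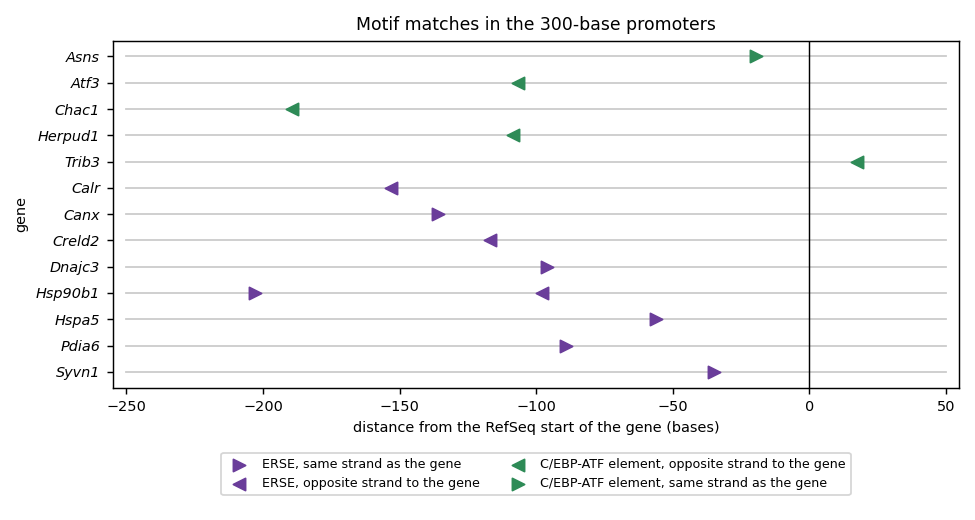
Position of each motif match (triangles, purple for ERSE and green for the C/EBP-ATF element, pointing along or against the gene) by distance from the RefSeq start in bases, one grey line per promoter. The ERSE matches lie between 212 and 26 bases before the start, and the Trib3 match is the only one after it.

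Differences between groups were tested with limma on log2(FPKM + 0.1) over the 20207 genes that averaged 0.1 FPKM or more, p-values were Benjamini-Hochberg adjusted over all of them, and a gene was called at an adjusted p of at most 0.05. Folds on this scale understate the changes of genes with low levels. In bFGF/BMP4-treated against bFGF/EGF-treated NSCs, 4 of the 34 genes rose and 14 fell, where 25.0% and 23.6% of all genes tested did. At 2-fold or more, 2 rose and 8 fell, beside 16.5% and 14.1% of all genes. In BMP4-treated against bFGF/EGF-treated NSCs, 4 rose and 21 fell, beside 29.6% and 25.3%, and at 2-fold or more 3 rose and 10 fell, beside 21.3% and 15.4%. In BMP4-treated against bFGF/BMP4-treated NSCs, 4 rose and 11 fell, beside 12.2% and 8.89%, and at 2-fold or more 2 rose and 3 fell, beside 8.41% and 5.14%.

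The share of the 34 genes that fell was therefore 41.2%, 61.8% and 32.4% in the 3 comparisons, above the share of all genes in each, and the share that rose was 11.8% in each. Their median log2 fold change was -0.29, -0.52 and -0.27, against 0.06, 0.10 and 0.00 over all genes tested. All genes tested include many of low level, whereas the 34 genes all averaged more than 1 FPKM. In a fit of only the 12947 genes averaging 1 FPKM or more, 4099, 4369 and 1627 fell and 4033, 4326 and 1835 rose. Of the 34 genes, 15, 21 and 11 fell and 4, 5 and 4 rose in that fit. The first 2 comparisons share the bFGF/EGF libraries. The mean was highest in bFGF/EGF-treated NSCs for 22 genes and lowest in BMP4-treated NSCs for 20. Of the 34 genes, 12 fell in both comparisons with day 0, 9 fell with BMP4 and were not called with bFGF/BMP4, 3 rose in both, and 7 were called in no comparison. In the direct comparison of BMP4 with bFGF/BMP4, 5 of those 9 fell. These patterns, and the groups of highest and lowest mean, were not counted over all genes tested, so no share stands beside them.

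**Figure D2:**
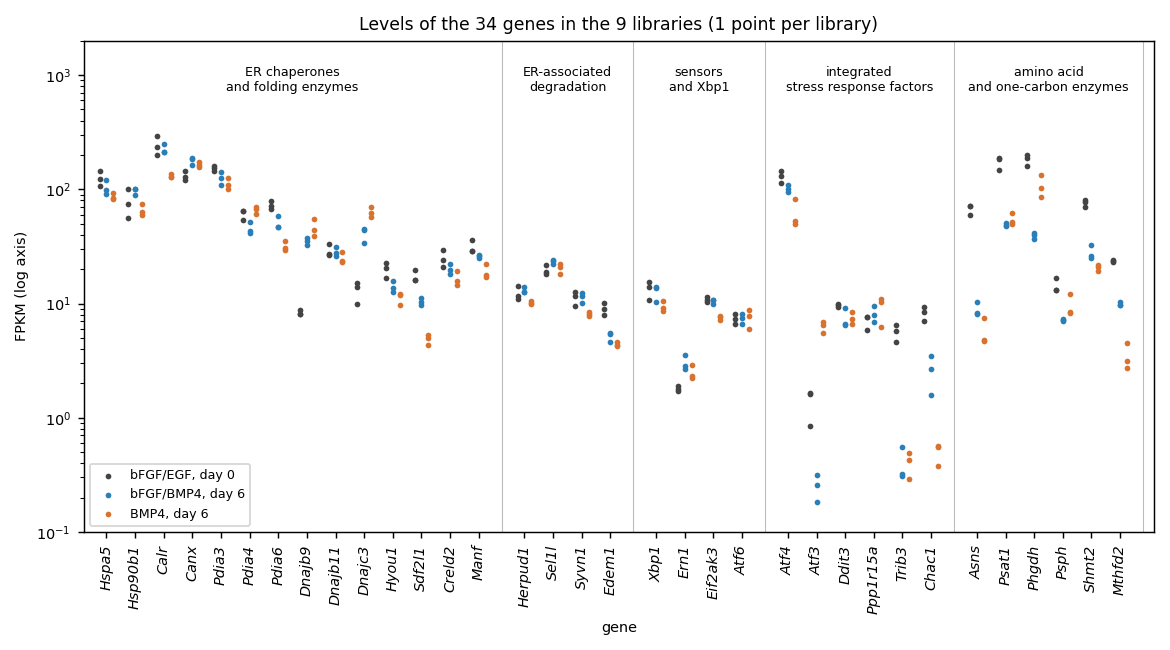
FPKM of each of the 34 genes (log axis) in each of the 9 libraries, 1 point per library, grouped by role. The enzymes of amino acid synthesis, Trib3 and Chac1 stand highest at day 0, Dnajb9 and Dnajc3 stand lowest there, and most chaperones lie within a narrow band.

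**Figure D3:**
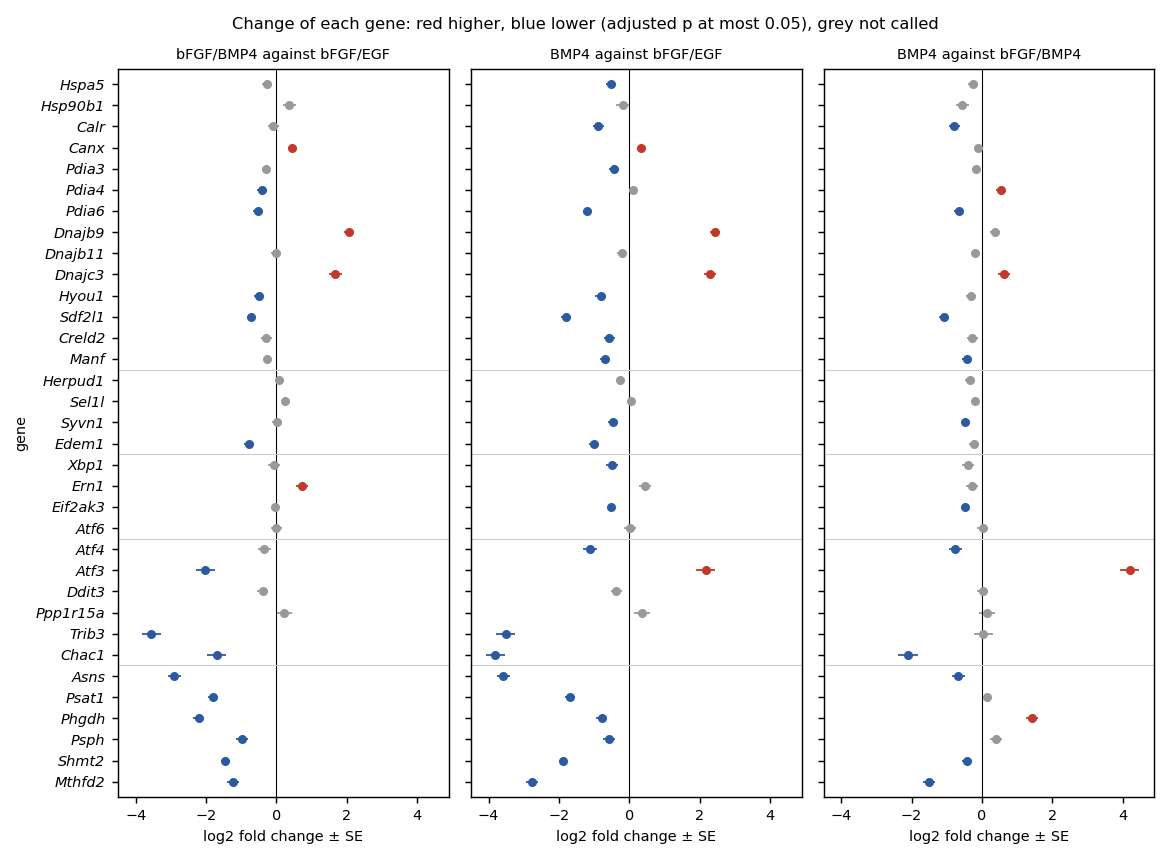
Fitted log2 fold change ± SE of each gene in the 3 comparisons, red for higher, blue for lower at an adjusted p of at most 0.05 and grey for not called. Blue points outnumber red ones 14 to 4, 21 to 4 and 11 to 4.

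The enzymes of amino acid and one-carbon synthesis were lower in both day 6 groups. Of them, 6 of 6 fell in both comparisons with day 0, with every library of day 6 below every library of day 0. Of all genes tested, 23.6% fell with bFGF/BMP4 and 25.3% with BMP4. Falls in both comparisons, and groups without overlap, were not counted over all genes tested. Their summed FPKM was 539 ± 51.4 (SD, n = 3) in bFGF/EGF-treated, 142 ± 8.65 in bFGF/BMP4-treated and 201 ± 36.0 in BMP4-treated NSCs. The 6 did not order the day 6 groups alike, since Phgdh rose from bFGF/BMP4 to BMP4 while Mthfd2, Asns and Shmt2 fell and Psat1 and Psph were not called.

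Asns, which makes asparagine from aspartate (chr6:7671667-7728461 in GRCm39, minus strand), had day 0 levels of 59.5, 71.9 and 70.8 FPKM, which became 8.24, 8.17 and 10.4 FPKM with bFGF/BMP4 and 4.82, 7.47 and 4.68 with BMP4. Every library of day 6 was below every library of day 0, by 7.54-fold for bFGF/BMP4 and 11.9-fold for BMP4 between means. The log2 fold change was -2.91 ± 0.19 (SE, adjusted p = 1.59e-06) and -3.58 ± 0.19 (adjusted p = 3.17e-07). The log2 difference of BMP4 against bFGF/BMP4 was -0.67 ± 0.19 (adjusted p = 0.0281). That call was lost without any 1 of the bFGF/BMP4 libraries or without BMP4 replicate 1 or 3 (adjusted p of 0.0534 to 0.114).

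Serine is made from 3-phosphoglycerate by Phgdh, Psat1 and Psph in turn. Phgdh, the first enzyme (chr3:98220484-98255047, minus strand), was at 190, 202 and 159 FPKM at day 0, 40.2, 36.4 and 41.3 with bFGF/BMP4 and 104, 133 and 85.8 with BMP4. The 3 groups did not overlap, with BMP4-treated NSCs between the others. It fell by 2.22 on the log2 scale in bFGF/BMP4 (SE 0.17, adjusted p = 4.49e-06) and by 0.79 in BMP4 (adjusted p = 0.00259), and was 2.74-fold higher with BMP4 than with bFGF/BMP4 (log2 1.43 ± 0.17, adjusted p = 0.000219). Psat1, the second enzyme, was at 185, 190 and 147 FPKM at day 0, 48.5, 47.5 and 51.1 with bFGF/BMP4 and 51.3, 61.7 and 49.3 with BMP4, so that the day 6 groups overlapped. It fell by 1.81 and 1.68 on the log2 scale (adjusted p = 4.27e-06 and 4.53e-06), and the difference between the day 6 groups was 0.13 ± 0.14 (adjusted p = 0.556). Psph, the last enzyme, was at 13.0, 16.6 and 13.3 FPKM at day 0, 7.15, 7.30 and 7.04 with bFGF/BMP4 and 8.44, 12.2 and 8.28 with BMP4. Its falls were 0.98 ± 0.16 (adjusted p = 0.000756) and 0.58 ± 0.16 (adjusted p = 0.0128), the second lost without BMP4 replicate 1 or 3 (adjusted p = 0.0536 and 0.0548). Psph exons overlap Cct6a on the other strand, which reached 147 FPKM, and the counting is not known to be stranded.

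Mthfd2 and Shmt2 are mitochondrial folate enzymes. Mthfd2, which oxidizes the one-carbon unit in mitochondria (chr6:83282673-83302890, minus strand), was at 23.5, 24.1 and 22.9 FPKM at day 0, 9.71, 10.3 and 9.63 with bFGF/BMP4 and 2.72, 4.55 and 3.13 with BMP4, with no overlap between any groups. It fell by 1.24 on the log2 scale with bFGF/BMP4 (adjusted p = 0.000191), by 2.76 with BMP4 (adjusted p = 8.08e-07) and by 1.52 between them (adjusted p = 0.00016). Shmt2, which takes the one-carbon unit from serine, was at 78.2, 80.8 and 70.0 FPKM, then 26.3, 25.3 and 32.4, and 21.0, 21.7 and 19.1 with BMP4. Its falls against day 0 were 1.45 and 1.88 on the log2 scale (adjusted p = 9.73e-06 and 1.23e-06), and the fall of 0.43 between the day 6 groups (adjusted p = 0.0319) was lost without bFGF/BMP4 replicate 3 or BMP4 replicate 1 or 3 (adjusted p of 0.0716 to 0.116).

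BMP4 replicate 2 was the highest library of its group for 6 of 6 of these enzymes, and also had the largest sum of FPKM over all genes of any library. In its own group, bFGF/EGF replicate 2 was likewise highest for 6 of 6. Of all genes tested, these libraries were highest for 40.1% and 38.5%. On the TPM scale they were highest for 5 and 2 of the 6, beside 22.7% and 27.2% of all genes. Of 14 proliferation genes, 14 fell in both comparisons with day 0 and 13 fell from bFGF/BMP4 to BMP4, and their summed FPKM was 512 to 951, 112 to 193 and 61.0 to 77.7 in the 3 groups. Their part in the falls of the enzymes was not tested.

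**Figure D4:**
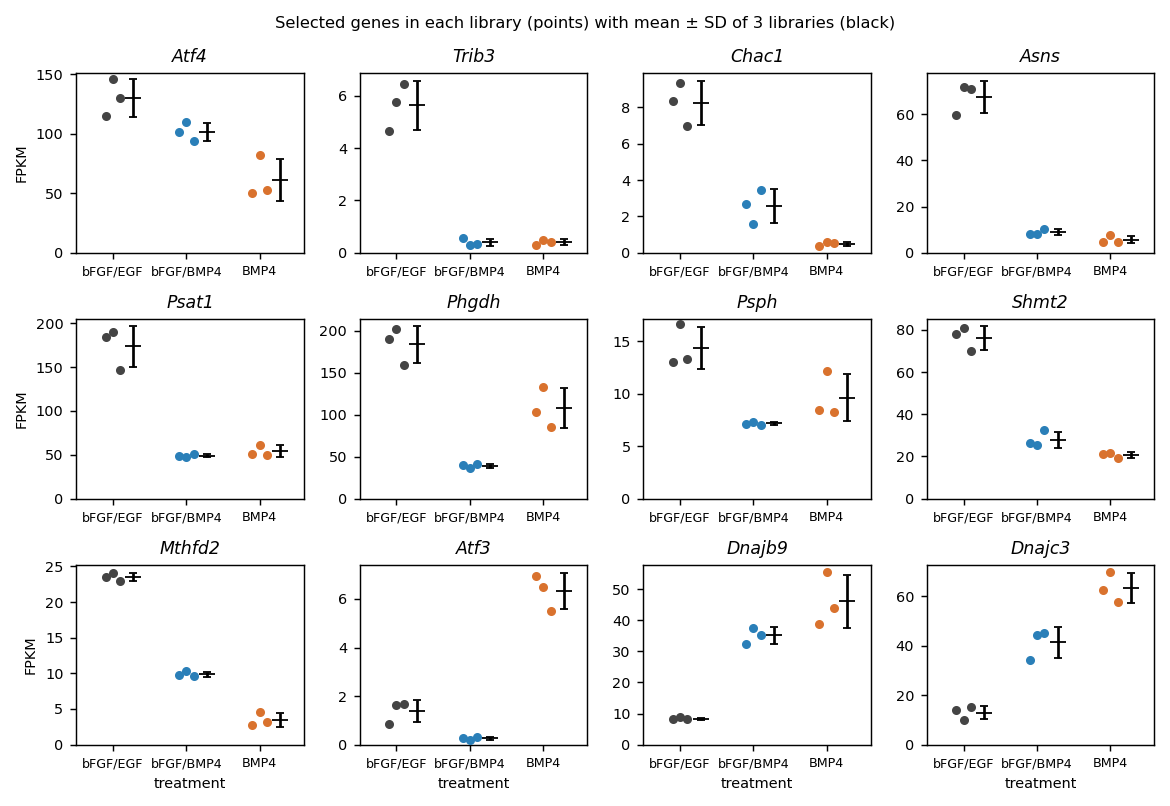
FPKM on linear axes from 0 of 12 genes in each library (points) with the mean ± SD of 3 libraries (black) for bFGF/EGF at day 0 and bFGF/BMP4 and BMP4 at day 6. Phgdh lies between the other groups with BMP4. Mthfd2 and Chac1 are lower with bFGF/BMP4 than at day 0 and lowest with BMP4. Atf3 is lowest with bFGF/BMP4, and Dnajb9 and Dnajc3 are higher in both day 6 groups than at day 0.

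Among the 6 factors of the integrated stress response, Trib3 and Chac1 fell in both comparisons with day 0, Atf4 fell with BMP4 and was not called with bFGF/BMP4, Atf3 moved in opposite directions, and Ddit3 and Ppp1r15a were not called. The counts, out of 6, were 3 lower with bFGF/BMP4, 1 higher and 3 lower with BMP4, and 1 higher and 2 lower between the day 6 groups. Among all genes tested, 25.0% rose and 23.6% fell with bFGF/BMP4, and 29.6% rose and 25.3% fell with BMP4. From bFGF/BMP4 to BMP4, 12.2% rose and 8.89% fell.

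Atf4, the transcription factor of this branch (chr15:80139372-80141745, plus strand), was at 115, 146 and 130 FPKM at day 0, 102, 110 and 94.4 with bFGF/BMP4 and 49.9, 81.9 and 52.5 with BMP4. The groups did not overlap, although the log2 difference between bFGF/BMP4 and day 0 was -0.35 ± 0.19 (adjusted p = 0.156). With BMP4 it fell by 1.11 (adjusted p = 0.000648), and the fall of 0.76 from bFGF/BMP4 to BMP4 (adjusted p = 0.016) was lost without bFGF/BMP4 replicate 2 or BMP4 replicate 1 or 3 (adjusted p of 0.0694 to 0.0728). ATF4 is regulated largely at translation, which these RNA values do not measure.

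Trib3, a pseudokinase target of ATF4 and CHOP (chr2:152179337-152191958, minus strand), was at 4.65, 5.77 and 6.47 FPKM at day 0, 0.557, 0.307 and 0.320 with bFGF/BMP4 and 0.290, 0.494 and 0.428 with BMP4. These were 168 to 243 fragments per library at day 0 and 10 to 19 at day 6. It fell by 3.56 ± 0.27 and 3.52 ± 0.27 on the log2 scale (adjusted p = 4.97e-06 and 3.52e-06), a mean 14.3-fold and 13.9-fold lower, while the day 6 groups overlapped. With a pseudocount of 1 in place of 0.1 the log2 falls were 2.24 and 2.23.

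Chac1, a glutathione-degrading enzyme induced by ATF4 (chr2:119180757-119184866, plus strand), was at 8.37, 9.35 and 6.98 FPKM at day 0, 2.66, 1.59 and 3.45 with bFGF/BMP4 and 0.376, 0.566 and 0.556 with BMP4. Unlike Trib3, it separated all 3 groups. It fell by 1.70 with bFGF/BMP4 (adjusted p = 0.000597), by 3.80 with BMP4 (adjusted p = 2.3e-06) and by 2.11 between them on the log2 scale (adjusted p = 0.000426), with 10 to 15 fragments per library left in BMP4-treated NSCs. With a pseudocount of 1 it fell by 2.62 with BMP4 and by 1.22 between the day 6 groups.

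Atf3, a stress-induced repressor that is also an immediate early gene (chr1:190902493-190950241, minus strand), was at 0.847, 1.61 and 1.66 FPKM at day 0, 0.260, 0.182 and 0.316 with bFGF/BMP4 and 6.95, 6.51 and 5.52 with BMP4. It was the gene of the 34 with opposite calls against day 0. It fell by 2.03 ± 0.28 on the log2 scale with bFGF/BMP4 (adjusted p = 0.000199), rose by 2.17 ± 0.28 with BMP4 (adjusted p = 9.48e-05), and was 25.1-fold higher with BMP4 than with bFGF/BMP4 (log2 4.20 ± 0.28, adjusted p = 8.82e-06). The bFGF/BMP4 libraries held only 6 to 10 fragments of it. With a pseudocount of 1 the log2 differences were -0.90, 1.64 and 2.54 in the same order, and all 3 were still called. Of 16 other immediate early genes, 1 rose and 10 fell with bFGF/BMP4, 2 rose and 6 fell with BMP4, and 6 rose and 1 fell from bFGF/BMP4 to BMP4. Those were 6.25% and 62.5%, 12.5% and 37.5%, and 37.5% and 6.25% of the 16. Of all genes tested, 25.0% and 23.6%, 29.6% and 25.3%, and 12.2% and 8.89% rose and fell. The part of the immediate early genes in the change of Atf3 was not tested.

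Ddit3, which encodes CHOP, was at 9.68, 9.30 and 10.0 FPKM at day 0, 9.12, 6.62 and 6.55 with bFGF/BMP4 and 6.62, 8.43 and 7.40 with BMP4. Both day 6 groups lay below day 0 without overlap, by 0.39 ± 0.15 and 0.37 ± 0.15 on the log2 scale, and neither was called (adjusted p = 0.0579 and 0.0637). Its exons overlap Mars1, Gm4189 and Mbd6 on the other strand, the highest of them at 49.4 FPKM. Ppp1r15a, the GADD34 subunit that restores eIF2alpha, overlapped across all groups and ranged from 5.85 to 11.0 FPKM.

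The ER chaperones and folding enzymes were the largest group. Of 14, 3 rose and 4 fell with bFGF/BMP4, 3 rose and 8 fell with BMP4, and 2 rose and 4 fell from bFGF/BMP4 to BMP4. The shares that rose and fell were 21.4% and 28.6% with bFGF/BMP4, near the 25.0% and 23.6% of all genes, 21.4% and 57.1% with BMP4, beside 29.6% and 25.3%, and 14.3% and 28.6% between the day 6 groups, beside 12.2% and 8.89%. At 2-fold or more, 2 rose with bFGF/BMP4, and 2 rose and 2 fell with BMP4. Their summed FPKM was 905 to 1056, 928 to 1097 and 813 to 888.

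Dnajb9 and Dnajc3, luminal J-domain partners of BiP, had the largest rises of the 14 in both comparisons with day 0. Dnajb9 (ERdj4; chr12:44252341-44257171, minus strand) was at 8.08, 8.76 and 8.10 FPKM at day 0, 32.5, 37.7 and 35.3 with bFGF/BMP4 and 38.8, 55.5 and 44.1 with BMP4. It was 4.23-fold and 5.55-fold higher than day 0 (log2 2.07 ± 0.14 and 2.44 ± 0.14, adjusted p = 1.95e-06 and 4.9e-07), and the difference between the day 6 groups was not called (adjusted p = 0.0824). Dnajc3 (p58IPK, also an inhibitor of eIF2alpha kinases; chr14:119175317-119219115, plus strand) was at 13.9, 9.82 and 15.1 FPKM, then 34.2, 44.4 and 45.2, and 62.3, 69.6 and 57.7 with BMP4. It was 3.19-fold and 4.89-fold higher than day 0 (log2 1.68 ± 0.18 and 2.30 ± 0.18, adjusted p = 3.79e-05 and 3.33e-06). Its rise of 0.62 between the day 6 groups (adjusted p = 0.0317) was lost without any 1 of the 6 libraries of the comparison (adjusted p of 0.0548 to 0.113) and on the TPM scale (adjusted p = 0.0707). The third gene that rose in both was Canx, the membrane lectin calnexin, at 121 to 143 FPKM at day 0, 165 to 187 with bFGF/BMP4 (log2 0.45, adjusted p = 0.0107) and 158 to 173 with BMP4. For BMP4 the rise was 0.34 (adjusted p = 0.036), and it was lost on the TPM scale (adjusted p = 0.127) and in leave-outs of 6 single libraries, bFGF/EGF replicate 1 or 2, bFGF/BMP4 replicate 2 or 3 and BMP4 replicate 1 or 3 (adjusted p of 0.0502 to 0.101).

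Hspa5 and Calr fell with BMP4 and were not called with bFGF/BMP4. Hspa5, which encodes BiP, the chaperone that holds the sensors inactive (chr2:34661982-34668880, plus strand), was at 108, 123 and 144 FPKM at day 0, 99.2, 91.7 and 120 with bFGF/BMP4 and 92.2, 83.6 and 82.2 with BMP4. Day 0 and BMP4 did not overlap, at a log2 difference of -0.53 ± 0.15 (adjusted p = 0.0117), whereas bFGF/BMP4 overlapped both. Calr, the luminal lectin calreticulin, was at 198, 293 and 233 FPKM at day 0, 213, 211 and 251 with bFGF/BMP4 and 135, 127 and 127 with BMP4. It fell by 0.87 against day 0 (adjusted p = 0.00104) and by 0.79 against bFGF/BMP4 (adjusted p = 0.00569) on the log2 scale, and bFGF/BMP4 overlapped day 0.

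Pdia6, a protein disulfide isomerase, and Sdf2l1, a partner of ERdj3 and BiP, were lower with bFGF/BMP4 than at day 0 and lowest with BMP4. Pdia6 was at 67.9, 79.1 and 71.8 FPKM, then 47.0, 46.7 and 58.3, and 29.2, 35.5 and 30.9 with BMP4, with log2 changes of -0.53 (adjusted p = 0.00686) and -1.19 (adjusted p = 3.23e-05) against day 0 and -0.66 (adjusted p = 0.00458) between the day 6 groups. Sdf2l1 was at 15.9, 19.5 and 16.2 FPKM, then 11.3, 9.71 and 10.2, and 4.95, 5.35 and 4.32 with BMP4. It fell by 0.72 (adjusted p = 0.00127), 1.80 (adjusted p = 2.38e-06) and 1.08 (adjusted p = 0.000266) in the same order, the deepest fall of the 14 genes with BMP4.

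The remaining members of the group changed by less than 1 on the log2 scale. Hyou1, the exchange factor GRP170, fell by 0.50 with bFGF/BMP4 (adjusted p = 0.0184) and by 0.82 with BMP4 (adjusted p = 0.00097), the first lost without bFGF/EGF replicate 2 or 3 or bFGF/BMP4 replicate 1 or 2 (adjusted p of 0.0502 to 0.0739). Pdia4 was the exception in shape, since it fell by 0.42 with bFGF/BMP4 (53.8, 65.0 and 64.8 to 43.4, 41.6 and 51.7 FPKM, adjusted p = 0.0193) and was at 69.5, 67.8 and 61.0 FPKM with BMP4, 0.54 above bFGF/BMP4 (adjusted p = 0.0129). Its fall was lost without bFGF/EGF replicate 2 or 3 or bFGF/BMP4 replicate 1 or 2 (adjusted p of 0.0545 to 0.0785), and its rise without bFGF/BMP4 replicate 2 or BMP4 replicate 1 (adjusted p = 0.0609 and 0.0503). Manf, a secreted ER stress-induced factor, fell by 0.70 with BMP4 (adjusted p = 0.00138) and by 0.44 between the day 6 groups (adjusted p = 0.0419), the latter lost in 6 of the 9 leave-outs, those of bFGF/EGF replicate 1, of each bFGF/BMP4 library and of BMP4 replicate 1 or 3 (adjusted p of 0.0559 to 0.133). Creld2 and Pdia3, a folding factor and the glycoprotein disulfide isomerase ERp57, fell with BMP4 only, by 0.57 (adjusted p = 0.0113) and 0.44 (adjusted p = 0.0195), the Pdia3 call lost without bFGF/EGF replicate 3 or BMP4 replicate 1 or 3 (adjusted p of 0.0528 to 0.0747). Hsp90b1, which encodes GRP94, was at 55.9 to 100 FPKM at day 0, and Dnajb11, which encodes ERdj3, was at 26.6 to 33.0, and neither was called in any comparison.

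In ER-associated degradation, Edem1, a lectin that marks misfolded glycoproteins for removal, was at 10.1, 8.92 and 8.02 FPKM at day 0, 5.46, 4.62 and 5.53 with bFGF/BMP4 and 4.27, 4.32 and 4.61 with BMP4. It fell by 0.78 (adjusted p = 0.000814) and 1.01 (adjusted p = 0.000117) on the log2 scale, with no overlap. Syvn1, the ubiquitin ligase HRD1, fell by 0.46 with BMP4 against day 0 (adjusted p = 0.0146), and its fall of 0.47 against bFGF/BMP4 (adjusted p = 0.0306) was lost without bFGF/BMP4 replicate 1 or 3 or any BMP4 library (adjusted p of 0.0587 to 0.0949). Its partner Sel1l, at 18.0 to 23.9 FPKM over all libraries, and Herpud1, at 9.95 to 14.3, were not called.

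The genes of the sensors and Xbp1 did not move together. Ern1, the lowest of the 4 in level, was at 1.79, 1.70 and 1.88 FPKM at day 0, 2.86, 3.53 and 2.69 with bFGF/BMP4 and 2.92, 2.21 and 2.33 with BMP4. It rose by 0.72 with bFGF/BMP4 (adjusted p = 0.00625), and with BMP4 the difference was 0.44 ± 0.17 (adjusted p = 0.0516). Eif2ak3 was at 10.2, 10.7 and 11.3 FPKM at day 0, 10.8, 9.92 and 10.7 with bFGF/BMP4 and 7.19, 7.57 and 7.79 with BMP4, which lay below both other groups by 0.51 and 0.47 on the log2 scale (adjusted p = 0.00187 and 0.0083). Xbp1, the factor spliced by IRE1, fell by 0.49 with BMP4 (adjusted p = 0.0324), a call lost without bFGF/EGF replicate 2 or 3 or BMP4 replicate 1 or 2 (adjusted p of 0.0741 to 0.111), and a gene-level value does not tell spliced from unspliced Xbp1. Exons of Xbp1, Syvn1 and Manf also overlap other genes (Ccdc117 for Xbp1, Mrpl49 among those for Syvn1, and Dcaf1 and Rbm15b among those for Manf), of which the highest in level reached 9.47, 25.6 and 33.6 FPKM in that order. Atf6 was at 5.97 to 8.85 FPKM over all libraries, with group means of 7.36, 7.35 and 7.51.

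Of the 8 genes with an ERSE match, 2 rose (Canx, Dnajc3), 5 fell (Hspa5, Calr, Pdia6, Creld2, Syvn1) and 1 was not called (Hsp90b1) with BMP4 against day 0. Of the 5 with a C/EBP-ATF element, Asns, Trib3 and Chac1 fell, Atf3 rose and Herpud1 was not called in that comparison. With bFGF/BMP4 against day 0, 2 of the 8 genes with an ERSE match rose, 1 fell and 5 were not called, and of the 5 with a C/EBP-ATF element Asns, Trib3, Chac1 and Atf3 fell and Herpud1 was not called. Of the 23 genes with a promoter but no ERSE match, 2 rose and 14 fell with BMP4, and 2 rose and 12 fell with bFGF/BMP4. Of the 26 without a C/EBP-ATF element, 3 rose and 16 fell with BMP4, and 4 rose and 9 fell with bFGF/BMP4. Of all genes tested, 29.6% rose and 25.3% fell with BMP4, and 25.0% and 23.6% with bFGF/BMP4. All matches are those printed above, and no test was made.

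Other genes of the same pathways were described from lists taken by known function. Of 25 other ATF4 target genes tested (26 listed, Fgf21 at most 3 fragments at day 6), 7 rose and 14 fell with bFGF/BMP4, 3 rose and 16 fell with BMP4, and 2 rose and 8 fell between the day 6 groups, at median log2 changes of -1.01, -1.16 and -0.40. The shares that fell were 56.0%, 64.0% and 32.0%, where 23.6%, 25.3% and 8.89% of all genes did. Mthfd1l, a mitochondrial folate enzyme, fell by 3.40 and 3.80 on the log2 scale against day 0 (adjusted p = 2.19e-06 and 7.64e-07), and its day 6 groups overlapped. Aldh18a1, the first enzyme of proline synthesis, was at 43.1, 52.1 and 44.8 FPKM at day 0 and 4.49, 3.81 and 4.68 with BMP4, and fell by 3.40 on the log2 scale (adjusted p = 8.71e-08). Cebpb, a bZIP factor that can pair with ATF4, was at 6.10, 8.91 and 7.68 FPKM at day 0, 0.786, 1.13 and 1.58 with bFGF/BMP4 and 7.17, 10.1 and 5.32 with BMP4, and was low in the bFGF/BMP4 libraries, as Atf3 was. Slc6a9, a glycine transporter, went the other way between the day 6 groups, at 13.3, 16.5 and 16.8 FPKM with bFGF/BMP4 and 4.55, 3.16 and 4.98 with BMP4.

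Of 17 other serine, glycine and folate genes, 4 rose and 8 fell with bFGF/BMP4 and 5 rose and 8 fell with BMP4, with medians of -0.18 and -0.21. The shares that rose, 23.5% and 29.4%, were close to the 25.0% and 29.6% of all genes, and 47.1% fell in each, beside 23.6% and 25.3%. Shmt1, the cytosolic counterpart of Shmt2, fell by 2.70 and 3.26 on the log2 scale (adjusted p = 5.85e-06 and 1.19e-06). Mtr, methionine synthase, was at 4.14 to 4.66 FPKM at day 0 and 16.0, 9.41 and 10.1 with BMP4, a rise of 1.39 (adjusted p = 0.00022).

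Upstream of ATF4, 1 of 13 genes for eIF2 kinases, eIF2 phosphatase and eIF2B rose and 6 fell with bFGF/BMP4, and 2 rose and 7 fell with BMP4. The shares that fell were 46.2% and 53.8%, beside 23.6% and 25.3% of all genes, and those that rose were 7.69% and 15.4%, beside 25.0% and 29.6%. Eif2ak2, the kinase PKR, rose by 1.65 on the log2 scale with bFGF/BMP4 (adjusted p = 2.36e-05) and was at 8.19 to 9.56 FPKM with BMP4 against at most 3.66 at day 0 (adjusted p = 2.95e-05), and Eif2s1, the alpha subunit of eIF2, fell by 1.14 with bFGF/BMP4 (adjusted p = 4.45e-05).

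Of 33 further genes of ER folding and translocation, 7 rose and 10 fell with bFGF/BMP4, 5 rose and 17 fell with BMP4, and 4 rose and 9 fell between the day 6 groups. With bFGF/BMP4 that was 21.2% and 30.3%, near the 25.0% and 23.6% of all genes, and with BMP4 15.2% and 51.5%, beside 29.6% and 25.3%. Between the day 6 groups it was 12.1% and 27.3%, beside 12.2% and 8.89%. Of 16 further genes of ER-associated degradation, 5 rose and 3 fell with bFGF/BMP4, 9 rose and 3 fell with BMP4, and 1 rose between the day 6 groups, with median log2 changes of 0.23, 0.37 and 0.01. That was 31.2% and 18.8% with bFGF/BMP4, near the share of all genes, and 56.2% and 18.8% with BMP4, beside 29.6% and 25.3%. Between the day 6 groups 6.25% rose, beside 12.2% of all genes. Of the 4 degradation genes described above, in contrast, none rose and 2 fell with BMP4. The difference between these lists was not tested. Os9, an ER lectin of that pathway, was at 31.5, 32.8 and 25.7 FPKM at day 0, 77.8, 58.1 and 63.9 with bFGF/BMP4 and 59.2, 63.5 and 63.7 with BMP4, a rise of 1.15 and 1.06 on the log2 scale (adjusted p = 9.33e-05 and 0.000121). Of 15 further transducers of ER stress, 4 rose and 6 fell, 5 rose and 7 fell, and 2 rose and 3 fell in the 3 comparisons. With bFGF/BMP4 26.7% rose and 40.0% fell, beside 25.0% and 23.6% of all genes, and with BMP4 33.3% and 46.7%, beside 29.6% and 25.3%. Between the day 6 groups 13.3% rose and 20.0% fell, beside 12.2% and 8.89%. Wfs1, the ER membrane protein wolframin, rose from 3.53, 4.41 and 4.29 FPKM at day 0 to 12, 12.8 and 12.2 with BMP4 (log2 1.58, adjusted p = 5.49e-06).

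**Figure D5:**
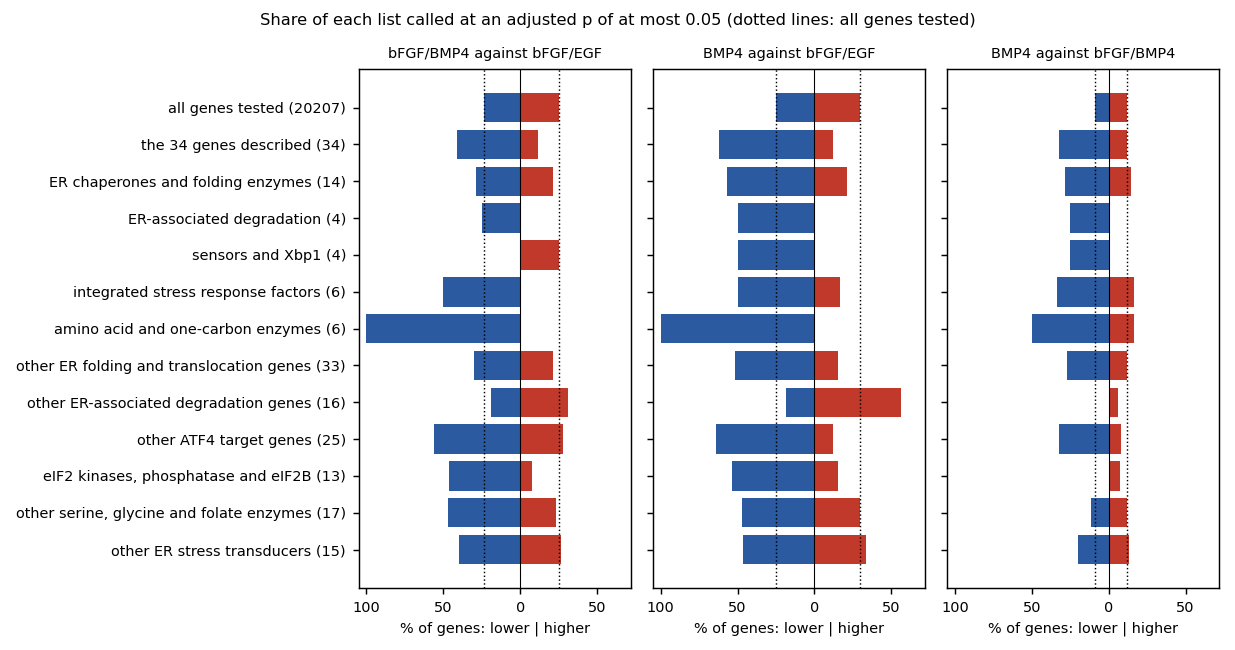
Percentage of the genes of each list called lower (blue, left) or higher (red, right) at an adjusted p of at most 0.05 in each comparison, with the number tested in brackets and all genes tested as dotted lines. The 6 amino acid and one-carbon enzymes reach 100% lower in both comparisons with day 0, and other ER-associated degradation genes extend to the higher side in BMP4 against bFGF/EGF.

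Of 18 cytosolic and mitochondrial heat shock genes, 6 rose and 7 fell with bFGF/BMP4, 7 rose and 5 fell with BMP4, and 6 rose between the day 6 groups. With bFGF/BMP4 33.3% rose and 38.9% fell, beside 25.0% and 23.6% of all genes, and with BMP4 38.9% and 27.8%, near the 29.6% and 25.3% of all genes. Between the day 6 groups 33.3% rose and none fell, beside 12.2% and 8.89%. The small heat shock gene Hspb8 was at 1.99, 2.11 and 2.50 FPKM at day 0, 277, 260 and 227 with bFGF/BMP4 and 1130, 1303 and 1115 with BMP4, a log2 rise of 6.79 and 9.01 (adjusted p = 3.06e-09 and 1.3e-10).

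Libraries within a group differed in how often they were highest. Among the bFGF/EGF libraries, replicate 1 was highest for 1 of the 34 genes, replicate 2 for 18 and replicate 3 for 15. Of all genes tested, they were highest for 31.8%, 38.5% and 29.7% in that order. On the TPM scale the counts were 3, 9 and 22, beside 28.8%, 27.2% and 44.1% of all genes. The summed FPKM of proliferation genes in replicate 1, 951, was above those of replicates 2 and 3, 705 and 512. Without replicate 1, 2 of the 58 calls made over the 34 genes and 3 comparisons were lost, that of Canx with BMP4 and that of Manf between the day 6 groups (adjusted p = 0.101 and 0.0559).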

How the data were processed

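The 34 genes, the other gene lists and the tests were chosen with earlier results of these data known. Per the labels and the submitters' processing notes, paired-end reads were cleaned with fastp 0.19.7, aligned to mm39 with HISAT2 2.0.5 and counted with featureCounts 1.5.0-p3. The deposited values are FPKM, computed by the authors, with 1 column per library. Whether counting used the strand, and the annotation release, are not given in the sources used here. Of 55414 Ensembl identifiers, 54749 were named from GENCODE vM39 (GRCm39), and 290 rows carried the authors' own names. The FPKM values gave whole fragment numbers (tolerance 0.002) for all 30860 genes above 0, used for depth and for limma-voom. The library constant implied by the values was 0.944 to 1.10 times the fragments. Depth was 15892854 to 17419822 fragments, and 3 fragments or fewer in a library counted as not detected, a limit that covers counting error only.

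The authors used DESeq2. The deposited values are FPKM, so it was not run here, and the supplementary count table was not used here. Fragment numbers rebuilt from the FPKM entered limma-voom as an alternative. As the main test limma 3.58.1 in R 4.3.3 with a trend was fitted to log2(FPKM + 0.1) of all 9 libraries for genes averaging 0.1 FPKM or more, with Benjamini-Hochberg adjustment over 20207 genes. The method was tested on simulated data in which few genes changed, and only in the BMP4 group. It therefore did not cover changes as widespread as those in these data. Python 3.11.15, pandas 2.3.3, numpy 2.4.6 and matplotlib 3.10.9 made tables, motif searches and figures. All 34 genes may be named. From other lists, the 2 genes with the largest change in a comparison, among those called with a mean FPKM of at least 5, may be named, besides cell type markers. Of 224 other listed genes, 223 were found, and Pifo was not. Alternatives were a pseudocount of 1, no filter, a filter at a mean of 1 FPKM, limma-voom, median-ratio scaling, the TPM scale, a replicate block, only the 2 groups compared, and each library left out. Protein sequences were not used here.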

Additional observations from a re-analysis of the deposited data

How the results depend on the processing

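Of 102 values (34 genes in 3 comparisons), 58 were called, and 45 of these held in all 17 alternatives. The other 13 lost their call in at least 1, as given with each gene, and none of the 58 changed sign. Apart from left-out libraries, leaving off the filter ended the calls of Canx in BMP4 against bFGF/EGF (adjusted p = 0.0619) and of Dnajc3 and Manf in BMP4 against bFGF/BMP4 (0.0507 and 0.0572). Fitting only the 2 groups compared ended those of Canx (0.0638), Asns (0.0778) and Shmt2 (0.0502), median-ratio scaling that of Canx (0.056), and the TPM scale those of Canx (0.127) and Dnajc3 (0.0707). Of the 44 values not called, 13 passed in at least 1 alternative. With 1 library left out, the genes lower in BMP4 against bFGF/BMP4 numbered 6 to 13 instead of 11 (6 without BMP4 replicate 1 or 3, 7 without bFGF/BMP4 replicate 3), and those higher 2 to 4 instead of 4 (2 without bFGF/BMP4 replicate 2). The other counts stayed within 1.5 times their value. A fit with the replicate number as a block gave 9 lower and 3 higher there, losing Dnajc3, Syvn1 and Shmt2 (adjusted p = 0.055, 0.0536 and 0.0644), and changed no other call. Correlations of deviations between libraries of the same number were -0.08 to 0.13, and not every library correlated best with its own number, so the numbers were not taken to pair the libraries.

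The sign of some differences that were not called depended on the setting. On the TPM scale it became negative for Sel1l (-0.0349) and Atf6 (-0.0678) in BMP4 against bFGF/EGF and for Atf6 (-0.0537), Ddit3 (-0.0529) and Trib3 (-0.02) in BMP4 against bFGF/BMP4. With median-ratio scaling it did for Syvn1 in bFGF/BMP4 (-0.0146) and Atf6 in BMP4 (-0.0228) against bFGF/EGF. The cause was not tested. With 1 library left out, the log2 differences that crossed 0 ranged as follows. In BMP4 against bFGF/EGF the range was Hsp90b1 -0.4023 to 0.0192, Sel1l -0.0109 to 0.1371 and Atf6 -0.1093 to 0.1715. In bFGF/BMP4 against bFGF/EGF the range was Calr -0.2208 to 0.0624, Dnajb11 -0.1013 to 0.0736, Syvn1 -0.1024 to 0.1041, Xbp1 -0.2265 to 0.0574 and Atf6 -0.0724 to 0.0757. In BMP4 against bFGF/BMP4 the range was Atf6 -0.1071 to 0.1737, Ddit3 -0.0686 to 0.1749, Ppp1r15a -0.001 to 0.407 and Trib3 -0.088 to 0.2641.

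The TPM scale moved the median log2 change of all genes by -0.08 and -0.06 in BMP4 against bFGF/EGF and bFGF/BMP4. The 13 calls that were lost anywhere ranged in size from that of Canx, which rose by 0.34 on the log2 scale, to that of Atf4, which fell by 0.76. A pseudocount of 1 shrank the log2 changes of the low genes without ending a call, for Atf3 in BMP4 against bFGF/BMP4 from 4.20 to 2.54, for Trib3 in bFGF/BMP4 against bFGF/EGF from -3.56 to -2.24 and for Chac1 in BMP4 against bFGF/EGF from -3.80 to -2.62. Fragment numbers of 6 to 19 per library limit the low groups of Atf3, Trib3 and Chac1.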
